A study of Arabidopsis thaliana with 9 samples.

Results

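The 44 genes described here encode proteins of the cytosolic ribosome of Arabidopsis thaliana and RACK1A, a scaffold protein that sits on the small subunit. They were picked out by their gene IDs: 28 genes of the large subunit, 12 of the small subunit, 3 for P0 at the base of the ribosomal stalk, and RACK1A. They encode 22 proteins, and for 17 of these more than 1 paralog was included. The genes fell on 43 of the 33871 loci of the deposited table, because the neighbouring L9 genes AT1G33120 and AT1G33140 (PGY2) shared 1 locus. A locus was tested when its mean FPKM over the 9 libraries was at least 1, which 42 of the 43 loci met, covering 43 of the 44 genes. FPKM is the number of sequenced fragments scaled to the length of the locus and the size of the library. The L8 gene AT3G51190 was the exception and is described below by its values alone.

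Messenger RNA came from inflorescences of 5-week-old soil-grown plants kept at 22 °C in long days, all of the genotype 35S:AP1-GR ap1,cal. The double mutant background replaces flowers by proliferating meristems, and the 35S promoter drives AP1-GR, the floral regulator APETALA1 joined to the hormone-binding part of the glucocorticoid receptor, in most tissues. One group of 3 libraries was untreated, 3 received cycloheximide for 2 h and 3 received dexamethasone plus cycloheximide for 2 h. Cycloheximide blocks translation elongation on cytosolic ribosomes, and dexamethasone lets AP1-GR enter the nucleus. Every plant carried AP1-GR, so what AP1-GR does and what the hormone does by itself cannot be told apart, and none of these groups received dexamethasone or a solvent alone. The labels call the libraries biological replicates without saying whether they came from separate plants, so the p-values measure the spread between these libraries, which may be partly technical.

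Each cytosolic ribosome holds 1 copy of most of its proteins, and in Arabidopsis nearly every one is encoded by several paralogous genes. Meristems and other dividing tissues use these genes heavily, and their transcription in plants is linked to short promoter elements, the telo box and site II motifs, the second of which is bound by TCP factors. Loss of single paralogs is known for pointed first leaves, changed leaf polarity and embryo arrest, from which names such as POINTED FIRST LEAF and PIGGYBACK come.

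The shoot meristem markers STM, CLV3, WUS, KNAT1 and TFL1 were read in all libraries, and the root hair marker EXPA7 and the seed marker CRA1 stayed at or below 0.0297 FPKM. The 5 meristem markers together moved with the groups: their summed level was 405 to 459.5 FPKM untreated, 281 to 369.6 with cycloheximide and 158 to 201 with both compounds. STM and KNAT1 fell with cycloheximide, WUS rose, and CLV3 and TFL1 did not pass the test, so the markers did not move one way. The tapetum marker A9 ranged from 2.02 to 6.37 FPKM untreated, 0.334 to 5.76 with cycloheximide and 0.138 to 0.247 with both compounds. The part of these shifts in the results below was not tested, and in whole inflorescences fewer cells of a type and less RNA per cell cannot be told apart. TFL1, a known target repressed by AP1, fell with dexamethasone by 1.85 ± 0.15 on the log2 scale (SE, limma adjusted p = 0.00279), from 142 ± 24 FPKM to 38.6 ± 6.04 (SD, n = 3). The top locus of each cycloheximide-containing library held 13.7% to 22.8% of its FPKM sum, against at most 3.57% for the top locus of an untreated one. FPKM is scaled to the length of the locus, so this is not the share of reads at that locus. An FPKM is a share, so a fall below means a smaller share of the transcripts measured, and need not mean fewer molecules per cell.

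Promoter sequence of 4 genes is shown because they carry the extremes of the data. RPL3A and RPL3B are the paralogs with the largest difference in ratio between groups, though no ratio passed its test. RPL23AA and the S8 gene AT5G20290 had the highest levels. The 250 bases before each gene start were read on the gene's strand from the RefSeq assembly TAIR10.1, at chr1:16266303-16266552 (plus strand) for RPL3A, chr1:22723153-22723402 (minus strand) for RPL3B, chr2:16473899-16474148 (plus strand) for RPL23AA and chr5:6853107-6853356 (minus strand) for AT5G20290. Capitals mark site II motifs, searched as TGGGCC and TGGGCT on both strands.
RPL3A: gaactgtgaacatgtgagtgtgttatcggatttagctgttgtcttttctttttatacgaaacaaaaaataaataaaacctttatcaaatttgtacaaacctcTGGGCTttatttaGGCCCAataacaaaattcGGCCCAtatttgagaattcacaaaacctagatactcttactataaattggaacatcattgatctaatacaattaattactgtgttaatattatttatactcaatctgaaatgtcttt
RPL3B: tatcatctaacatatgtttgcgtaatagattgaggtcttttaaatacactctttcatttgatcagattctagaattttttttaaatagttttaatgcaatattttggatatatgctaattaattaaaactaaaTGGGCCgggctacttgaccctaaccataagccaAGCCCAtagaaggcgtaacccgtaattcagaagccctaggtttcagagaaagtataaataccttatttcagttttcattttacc
RPL23AA: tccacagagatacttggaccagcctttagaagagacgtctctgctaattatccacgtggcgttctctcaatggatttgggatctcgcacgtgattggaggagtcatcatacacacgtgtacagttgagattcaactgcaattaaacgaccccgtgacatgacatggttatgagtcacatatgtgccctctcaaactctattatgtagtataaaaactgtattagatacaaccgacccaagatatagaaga
AT5G20290: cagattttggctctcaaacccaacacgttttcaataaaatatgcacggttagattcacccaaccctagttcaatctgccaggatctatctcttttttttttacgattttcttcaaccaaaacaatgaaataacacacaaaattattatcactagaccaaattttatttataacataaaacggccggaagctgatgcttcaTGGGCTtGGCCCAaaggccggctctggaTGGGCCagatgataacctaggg
RPL3A had 3 site II matches, 148, 135 and 117 bases before the start, and RPL3B had 2, at 117 and 84 bases. AT5G20290 had 3 within the last 50 bases, and RPL23AA had none in this window.

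Over a window of 250 bases before to 50 after the gene start, 38 of the 44 genes (86.4%) held a site II motif in either form, against 21.7% of the 27443 annotated protein-coding genes. The telo box, searched as AAACCCT on both strands, was found in 20 of them (45.5%) against 10.02% of all genes, and 17 (38.6%) held both kinds against 3.19%. TGGGCC can match both strands of 1 stretch with overlap, and both matches then count; a match is a description of the sequence, not a binding site. In the 250 bases before the gene start alone, the shares were 15.9% for the telo box and 72.7% for site II, against 7.33% and 19.2% of all genes. RPL27AB had the most matches, with 4 telo boxes and 4 site II motifs, and RACK1A had 4 site II motifs of the TGGGCT form and no telo box. Only RPL23AA, RPS5B and RPS13A held none of the motifs in the longer window. For RPS5B and RPS13A that window ended before the measured locus began. The near-silent L8 gene AT3G51190 held 2 telo boxes and 2 site II motifs. The 182 other cytosolic ribosomal protein genes on a list written for comparison held site II in 74.2% and the telo box in 51.7% of their promoters.

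**Figure D1:**
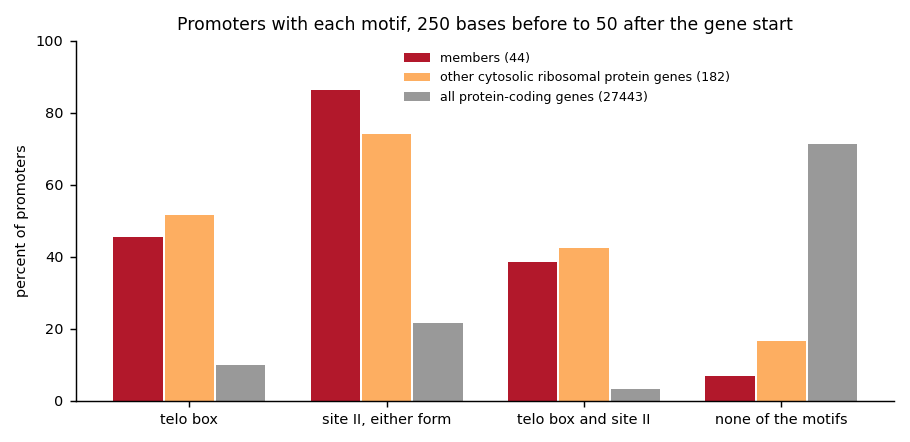
Share of promoters (vertical axis, percent) that held a telo box, a site II motif in either form, both, or none, in the 44 genes, 182 other cytosolic ribosomal protein genes and 27443 protein-coding genes. Site II was found in 86.4% of the 44 genes and in 21.7% of all genes.

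The genes were among the most abundant of the inflorescence. In untreated libraries the 42 tested loci had a median of 470.4 FPKM, 38 of them were at 100 FPKM or more, and 38 stood above the 90th percentile of the tested loci of at least 300 bp. RPL23AA, a protein at the exit of the peptide tunnel, was highest at 1390 ± 78.8 FPKM (SD, n = 3), followed by the S8 gene AT5G20290 at 1360 ± 62.1, and these 2 did not differ beyond their spread. The lowest tested members were RPL3B at 14 ± 0.399 FPKM, the P0 gene AT2G40010 at 19.7 ± 1.95, RPL10B at 34.1 ± 1.47 and the P0 gene AT3G11250 at 81.8 ± 3.68. The L8 gene AT3G51190 was listed at 0 in 4 of the 9 libraries and at most at 0.0613 FPKM, in untreated replicate 3. Summed over the paralogs included, the proteins ranged from 257 FPKM for S10, for which only RPS10B was included, to 2048 FPKM for S13.

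**Figure D2:**
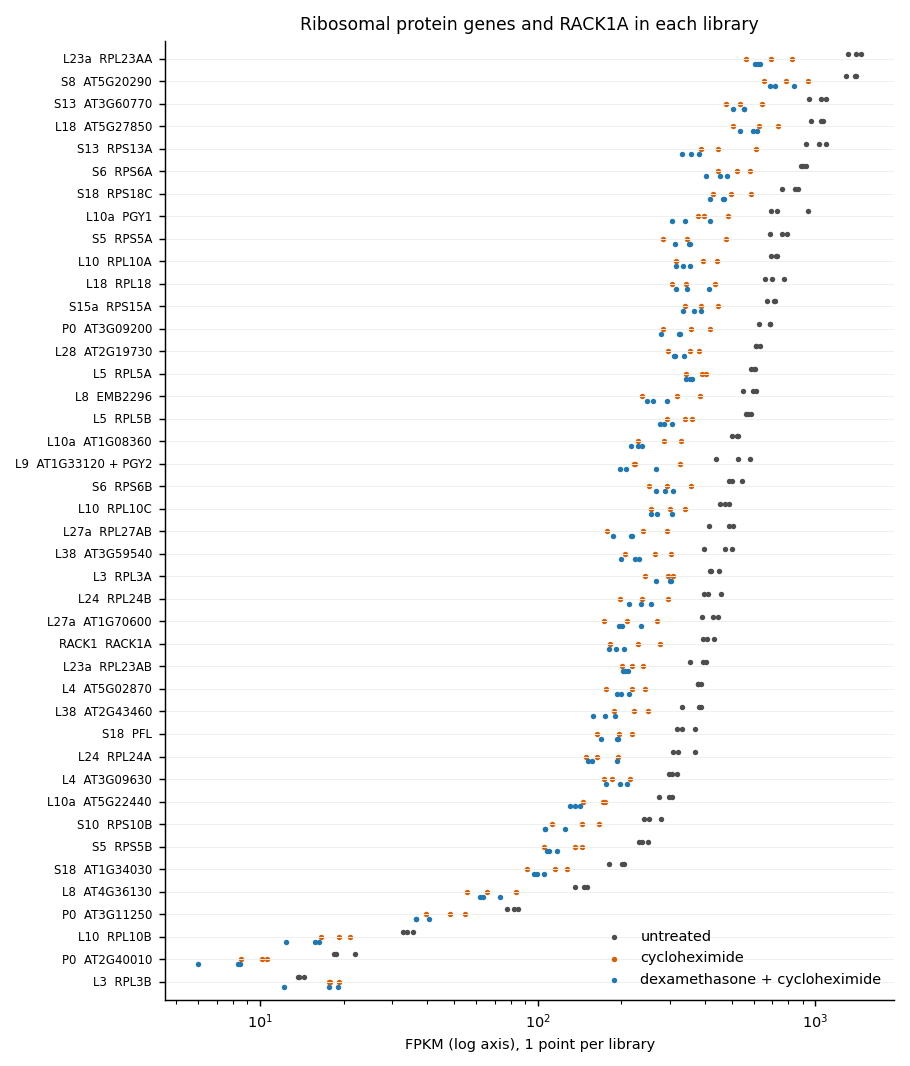
FPKM of the 42 tested loci (log axis) in each of the 9 libraries, 1 point per library, with the loci ordered by their untreated mean. Untreated libraries lay to the right of all others at 41 loci, and RPL3B at the bottom was the exception.

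Nearly the whole set was lower with cycloheximide. Of the 42 loci, 41 fell in cycloheximide against untreated libraries and 0 rose (limma adjusted p under 0.05), while 28.2% of the 19569 tested loci fell and 26.5% rose. The median log2 fold change of the members, on the scale of log2(FPKM + 1), was −0.85, which is 55.5% of the untreated level, and that of all tested loci was −0.05. The 41 loci that fell lay between −1.10 and −0.62. By subunit the medians were −0.84 for the 26 large-subunit loci, −0.84 for the 12 small-subunit loci and −0.93 for the 3 P0 genes. At the same 41 loci the 3 cycloheximide libraries were all below the 3 untreated ones, as at 33.6% of all loci. The summed FPKM of the members was 23207, 22594 and 20988 in untreated replicates 1, 2 and 3, and 14410, 12228 and 10326 in the same replicates of the cycloheximide group. Cycloheximide replicate 1 was the highest of its group at 40 of the 42 loci and replicate 3 the lowest at 39. The other groups leaned the same way. Untreated replicate 1 was the highest at 26 loci and replicate 3 the lowest at 35. With both compounds replicate 1 was the highest at 33 and replicate 3 the lowest at 27. Values scaled so that every library had the same median shifted the median of all loci by −0.12 and the members' median to −0.96.

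**Figure D3:**
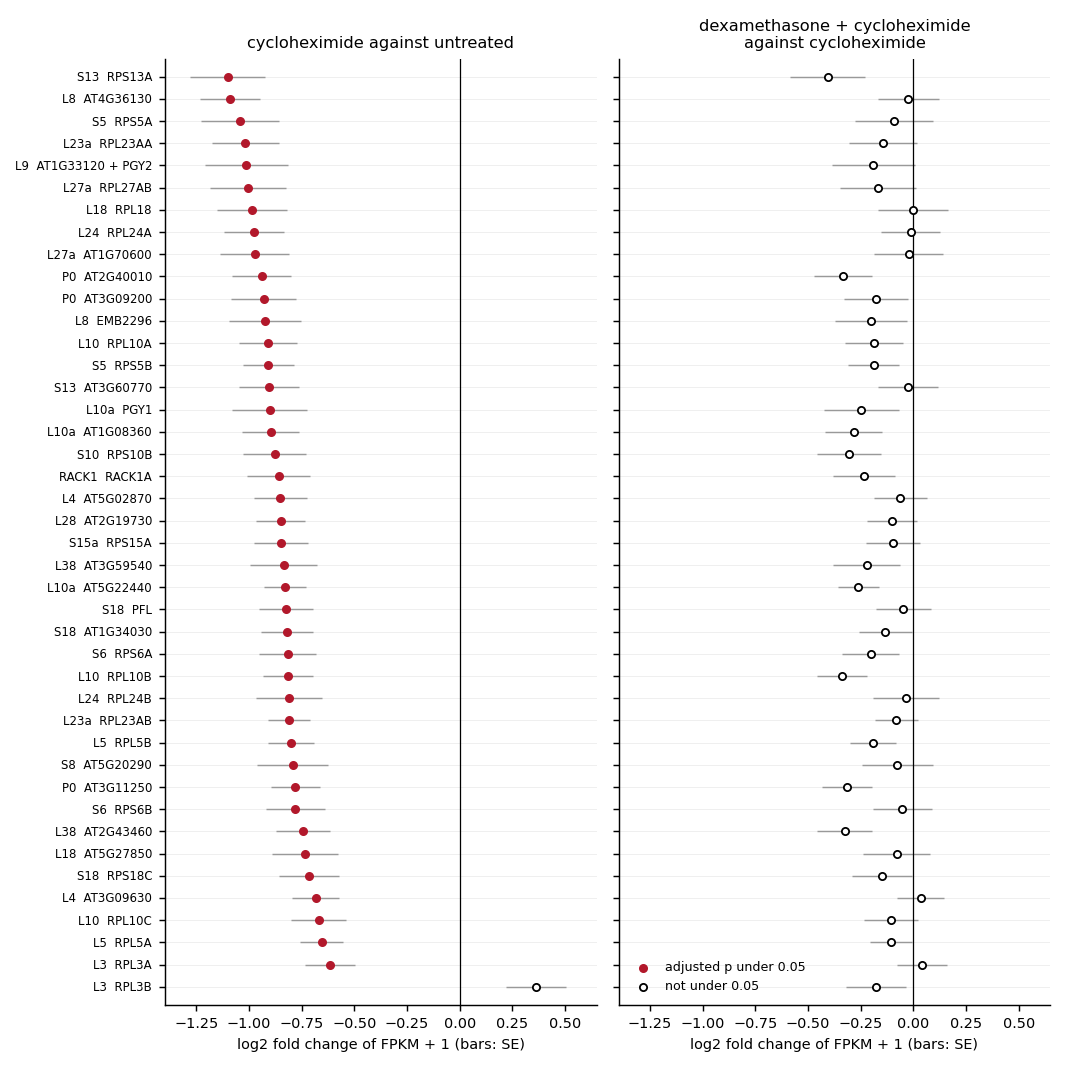
Log2 fold change of FPKM + 1 (horizontal axis, bars are SE) for each tested locus, with cycloheximide against untreated at left and dexamethasone plus cycloheximide against cycloheximide at right; filled points passed an adjusted p under 0.05. In the left panel 41 of 42 loci passed, all below 0, and in the right panel 0 passed.

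RPL3A is the main gene for L3, which lies next to the catalytic centre of the large subunit. It had 416, 423 and 452 FPKM in untreated replicates 1, 2 and 3, 308, 294 and 243 under cycloheximide, and 299, 302 and 266 with both compounds. Its fall of 0.62 ± 0.12 on the log2 scale (SE, adjusted p = 0.00273) was the smallest of the 41. Its paralog RPL3B had higher values with cycloheximide: 14.4, 13.7 and 13.9 FPKM untreated, 19.2, 17.7 and 17.9 under cycloheximide, and 19.1, 12.2 and 17.7 with both compounds. All cycloheximide libraries were above all untreated ones for RPL3B, but the difference of 0.36 ± 0.14 did not pass (adjusted p = 0.0602), and it passed when replicate 1 or 2 of the libraries with both compounds was left out (adjusted p = 0.0395 and 0.00307) or when only the 6 libraries of this comparison were fitted (adjusted p = 0.00506). In the libraries with both compounds RPL3B overlapped with untreated.

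The L8 proteins also border the catalytic centre. The main L8 gene EMB2296, named for an embryo-defective mutant, had 594, 612 and 548 FPKM untreated, 383, 318 and 238 under cycloheximide and 293, 261 and 248 with both compounds. AT4G36130, its weaker paralog, had 150.5, 147 and 136 FPKM untreated and 83.4, 65.7 and 55.5 with cycloheximide, the second largest fall (log2 −1.09 ± 0.14, adjusted p = 0.000389). For L4, which lines the tunnel, AT5G02870 had 379, 387 and 378 FPKM untreated, 244, 219.5 and 176 under cycloheximide and 213, 200.3 and 194 with both compounds. Its somewhat weaker paralog AT3G09630 had 317, 304 and 297 FPKM untreated, 215, 185 and 173 under cycloheximide and 210.4, 199 and 177 with both. Both groups of treated libraries were below untreated for each of these genes.

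RPL23AA and RPL23AB encode L23a at the tunnel exit, where nascent chains leave the ribosome. RPL23AA had 1399, 1463 and 1306 FPKM untreated, 827, 692 and 561 under cycloheximide, and 633, 620 and 606 with both compounds. RPL23AB had 405, 395 and 354 FPKM untreated, 239, 218 and 200.5 under cycloheximide, and 207, 202 and 211 with both. The stronger gene fell by 1.02 ± 0.16 and the weaker by 0.81 ± 0.10 on the log2 scale (adjusted p = 0.000982 and 0.000281).

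L5 carries the 5S ribosomal RNA into the large subunit, and its 2 genes were nearly equal. RPL5A had 587, 605 and 599.7 FPKM untreated, 405, 392 and 343 under cycloheximide, and 359, 343 and 353 with both compounds. RPL5A fell by 0.66 ± 0.10 on the log2 scale (adjusted p = 0.000923), among the smallest changes, and RPL5B by 0.80 ± 0.11 (adjusted p = 0.000466). L10, which joins the large subunit late in its assembly, is encoded by 3 genes of very different level. RPL10A, known as a target of the NIK1 receptor kinase in antiviral defence, had 724, 729 and 691 FPKM untreated, 443, 394 and 315 under cycloheximide, and 354, 334 and 315 with both compounds. RPL10C had 472, 490.5 and 453 FPKM untreated, 340.1, 299 and 256 under cycloheximide, and 304, 268 and 255 with both. RPL10B stood far lower, at 32.7 to 35.6 FPKM untreated and 16.6 to 21.1 with cycloheximide.

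L10a forms the movable L1 stalk, where used transfer RNAs leave. PGY1, its main gene and named PIGGYBACK1 for its effect on leaf polarity, had 942, 727 and 691 FPKM untreated, 485, 377 and 396 under cycloheximide, and 417, 339 and 305 with both compounds. The other L10a genes, AT1G08360 and AT5G22440, had 502 to 529 and 273 to 305 FPKM untreated and 229 to 328 and 146 to 175 with cycloheximide. The single locus of the L9 genes AT1G33120 and PGY2 had 582, 526 and 438 FPKM untreated, 326, 223 and 223 under cycloheximide, and 268, 197 and 207 with both compounds. These L9 genes were 99.2% identical in coding sequence, and the locus value stands for both.

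Among the remaining large-subunit genes, the stronger L18 gene AT5G27850 had 1047, 1063 and 963 FPKM untreated, 732, 629 and 504 under cycloheximide, and 616, 594 and 537 with both compounds. RPL18 had 770, 699.7 and 657 FPKM untreated, 435, 342 and 304 under cycloheximide, and 415, 345 and 314 with both. RPL18 fell by 0.99 ± 0.17 and AT5G27850 by 0.74 ± 0.16 on the log2 scale (adjusted p = 0.00143 and 0.00469). L24 forms a bridge to the small subunit, and RPL24B is known as SHORT VALVE1, needed for reinitiation after upstream open reading frames. RPL24B had 458, 412 and 397 FPKM untreated, 296, 237 and 197 under cycloheximide, and 256, 236 and 213 with both compounds. RPL27AB for L27a had 488, 505 and 413 FPKM untreated, 293, 239.8 and 178 under cycloheximide, and 218, 187 and 217 with both. The L28 gene AT2G19730 had 631, 611 and 611 FPKM untreated, 381, 355 and 296 under cycloheximide, and 309, 336 and 312 with both. In each of these the untreated libraries were above all 6 others. AT3G59540 for L38 had 502, 471 and 397 FPKM untreated, 302, 265 and 205 under cycloheximide, and 231, 200.4 and 223 with both compounds.

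All 12 small-subunit loci fell with cycloheximide, between −1.10 and −0.72 on the log2 scale. The largest fall of the whole set was in RPS13A, one of the genes for S13, known as POINTED FIRST LEAF2: 1095, 1035 and 926 FPKM untreated, 609.7, 447 and 387 under cycloheximide, and 382, 357 and 332 with both compounds (log2 −1.10 ± 0.18, SE, adjusted p = 0.00107). Its paralog AT3G60770, at nearly the same level in untreated libraries, had 1088, 1052 and 949 FPKM there, 645, 537 and 475 under cycloheximide, and 552, 555 and 506 with both compounds (log2 −0.91 ± 0.14, adjusted p = 0.00101). The S13 genes separated most in the libraries with both compounds, where RPS13A was the lower one in each. RPS5A, whose promoter is widely used to drive transgenes in dividing cells, had 756, 791 and 688 FPKM untreated, 478, 345 and 284 under cycloheximide, and 354, 349.9 and 312 with both. RPS5A had the third largest fall (log2 −1.04 ± 0.19, adjusted p = 0.00184), and RPS5B at 232 to 249 FPKM untreated fell by 0.91 ± 0.12.

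S6 is the ribosomal protein phosphorylated by S6 kinase downstream of TOR. RPS6A had 928, 884 and 904 FPKM untreated, 582, 523 and 445 under cycloheximide, and 481, 455 and 405 with both compounds. RPS6B had 489 to 546 FPKM untreated and 252 to 356 with cycloheximide, and both genes fell by about the same amount, 0.82 ± 0.13 and 0.78 ± 0.14 on the log2 scale. The S8 gene AT5G20290 had 1399, 1392 and 1288 FPKM untreated, 943, 783 and 653 under cycloheximide, and 837, 689 and 713 with both compounds. RPS18C, the strongest of 3 genes for S18 in the head of the subunit, had 864, 844 and 758 FPKM untreated, 584, 497 and 428 under cycloheximide, and 467, 469 and 416 with both. PFL, the POINTED FIRST LEAF gene, and AT1G34030 also encode S18, at 319 to 369.6 and 181 to 205 FPKM untreated. All S18 genes fell with cycloheximide, RPS18C by 0.72 ± 0.14 and PFL by 0.82 ± 0.13 on the log2 scale, and no library of either treated group reached the untreated ones. RPS15A for S15a had 710.4, 717 and 672 FPKM untreated, 446, 386 and 339.7 under cycloheximide, and 388, 366 and 335 with both compounds. RPS10B for S10 had 277, 251 and 242 FPKM untreated, 166, 144 and 112 under cycloheximide, and 126, 106 and 106 with both. For S15a and S10 too, no treated library reached the lowest untreated one.

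P0 anchors the stalk that recruits elongation factors, and AT3G09200 supplied most of its transcript. AT3G09200 had 687, 686 and 626 FPKM untreated, 418, 357 and 284 under cycloheximide, and 323, 325 and 279 with both compounds. AT2G40010, the weakest, had 21.9, 18.4 and 18.7 FPKM untreated, 10.2, 10.6 and 8.55 under cycloheximide, and 8.5, 5.98 and 8.36 with both compounds. All 3 P0 genes fell with cycloheximide, by 0.78 to 0.94 on the log2 scale. RACK1A had 407, 433 and 393 FPKM untreated, 276, 229 and 182 under cycloheximide, and 204, 192 and 181 with both compounds. RACK1A fell by 0.86 ± 0.15 on the log2 scale (SE, adjusted p = 0.0016), close to the members' median.

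Adding dexamethasone changed no member past the threshold in the main fit. Of the 42 loci 0 were called in dexamethasone plus cycloheximide against cycloheximide alone (limma, adjusted p), where 3.69% of all tested loci were called, 1.78% lower and 1.91% higher. An unadjusted limma p under 0.05 was found at 6 of the 42, and the share of all loci at that threshold was not taken. The members' median log2 fold change was −0.15 against 0.01 for all loci, and 40 of the 42 were below 0, as were 48.8% of all loci. That median rested on the cycloheximide libraries: it was −0.03 without cycloheximide replicate 1 and −0.26 without cycloheximide replicate 3. The largest change was again in RPS13A, −0.41 ± 0.18 (SE, adjusted p = 0.212), whose libraries with both compounds (332 to 382 FPKM) all lay below those with cycloheximide alone (387 to 609.7). RPL10B, the L10a gene AT5G22440 and the P0 gene AT2G40010 also had non-overlapping lower values, 4 loci in all, where 11.0% of all loci did. RPL10B had 21.1, 19.3 and 16.6 FPKM under cycloheximide and 16.3, 15.7 and 12.4 with both compounds (log2 −0.34 ± 0.12, adjusted p = 0.134). The replicate numbers were read as pairing these 6 libraries, which the labels do not state. A fit of these 6 alone with the number as a block was chosen after seeing the data. It called RPL10B lower (limma adjusted p = 0.0455) and no other member. The planned block in all 9 libraries called no member. Without cycloheximide replicate 3 only the P0 gene AT3G11250 was called, also lower (log2 −0.44, adjusted p = 0.0409). RPL3A (0.04 ± 0.12) and the L4 gene AT3G09630 (0.03 ± 0.11) were the only members with a value above 0.

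Dexamethasone plus cycloheximide against untreated shares the untreated libraries with the first comparison. In it 41 of 42 loci fell and 0 rose, with 33.1% of all tested loci lower and 30.8% higher. The median log2 fold change was −1.01, which is 49.7% of the untreated level, and that of all loci −0.06. RPS13A fell most, by 1.51 ± 0.18 on the log2 scale (SE, adjusted p = 0.000127), followed by the P0 gene AT2G40010 at −1.28 ± 0.14 and the L9 locus at −1.20 ± 0.20. RPL3A again fell least, by 0.57 ± 0.12, and RPL3B did not pass (0.18 ± 0.14, adjusted p = 0.284), though it did without replicate 2 of the libraries with both compounds (0.37, adjusted p = 0.00385). The value of RPL3B was 0.066 without replicate 1 of those libraries (limma adjusted p = 0.69) and 0.047 when centred on the library median (adjusted p = 0.77). The members' summed FPKM was 11880, 11029 and 10475.

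**Figure D4:**
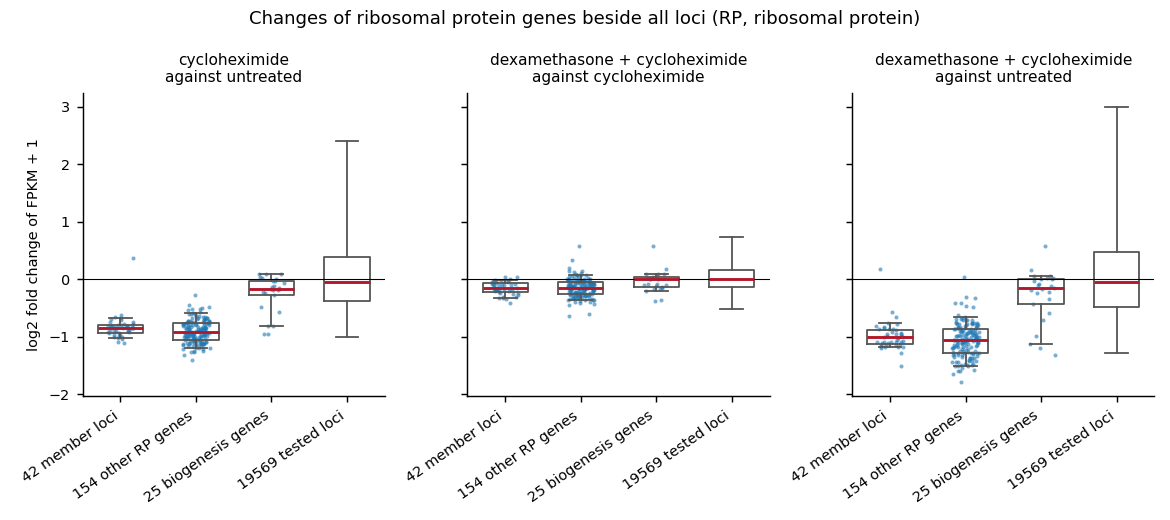
Log2 fold change of FPKM + 1 (vertical axis) in the 3 comparisons for the 42 member loci, 154 other cytosolic ribosomal protein (RP) genes, 25 ribosome biogenesis genes and all 19569 tested loci; points are genes, boxes the quartiles with the median in red, whiskers the 5th and 95th percentiles. The members' medians were −0.85, −0.15 and −1.01, and those of all loci −0.05, 0.01 and −0.06.

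No paralog ratio passed its test. For each protein the strongest paralog was set against each of the others as a log2 ratio of FPKM + 1, and the 3 untreated libraries were compared with the 6 that received cycloheximide by an exact two-sided permutation test over the 84 assignments. Of 22 pairs 20 could be tested. None passed after Benjamini-Hochberg adjustment over the 20 pairs (smallest adjusted p = 0.068), and 8 had an unadjusted exact p under 0.05, with 0.0119 the smallest this design can give. Even at that smallest p, a pair could pass the adjustment only if several other pairs had similarly small p. The test therefore could not decide whether any single ratio changed. The median absolute difference of the ratio was 0.10 on the log2 scale, and in 18 of the 20 pairs it was under 0.3. Paralogs were 76.9% to 92.7% identical in coding sequence, with the longest identical stretch of messenger RNA 20 to 98 bases, so some reads may have been shared between them and their ratios are uncertain to that extent.

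The pair with the largest difference was RPL3A to RPL3B. Their log2 ratio was 4.76, 4.85 and 4.93 in untreated libraries, 3.93, 3.98 and 3.69 under cycloheximide, and 3.90, 4.52 and 3.84 with both compounds. All treated libraries were below all untreated ones, and the difference of the means was −0.87 (exact permutation p = 0.0119, adjusted p = 0.068). RPL3A still made up 93.1% or more of the pair's FPKM in every library, against 96.6% to 97.0% untreated. In libraries with both compounds, replicate 2 stood nearest to untreated, and without it the difference was −0.98.

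The S13 pair had the next largest difference. The log2 ratio of AT3G60770 to RPS13A was −0.01, 0.02 and 0.04 untreated, 0.08, 0.26 and 0.29 under cycloheximide, and 0.53, 0.64 and 0.61 with both compounds, a difference of 0.39 (exact permutation p = 0.0238, adjusted p = 0.068). AT3G60770 accounted for 49.8% to 50.6% of the pair's FPKM untreated and 59.1% to 60.9% with both compounds. The 3 groups did not overlap, and the difference between the treated groups was not tested. For RPL5A to RPL5B the 3 groups did not overlap either. That log2 ratio was 0.005 to 0.087 untreated, 0.17 to 0.23 under cycloheximide and 0.24 to 0.35 with both compounds. Its difference was 0.19 (exact permutation p = 0.0119, adjusted p = 0.068). These S13 genes also differed in their promoters: AT3G60770 held 1 telo box and 2 site II motifs and RPS13A none. The S5 genes had a similar contrast, with 2 telo boxes and 2 site II motifs in RPS5A and none in RPS5B. Their ratio of RPS5A to RPS5B differed by −0.086. A link between motifs and ratios was not tested. The annotated starts of RPS13A (36916) and RPS5B (15649471) lay upstream of where their measured loci began (37084 and 15649221). Both windows ended before the measured locus, so the lack of motifs holds for the annotated starts only.

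The ratio of RPL10A to RPL10C was 0.61, 0.57 and 0.61 untreated, 0.38, 0.40 and 0.30 under cycloheximide, and 0.22, 0.32 and 0.30 with both compounds (difference −0.28, exact permutation p = 0.0119). Every treated library had a lower ratio than every untreated one. For L23a, RPL23AA to RPL23AB went from 1.79, 1.89 and 1.88 untreated to 1.79, 1.66 and 1.48 under cycloheximide and 1.61, 1.61 and 1.52 with both (difference −0.24, exact permutation p = 0.0238). For L4, AT5G02870 to AT3G09630 went from 0.26, 0.35 and 0.35 untreated to 0.18, 0.25 and 0.03 under cycloheximide and 0.02, 0.01 and 0.13 with both (difference −0.21, exact permutation p = 0.0238). In these 3 pairs the mean ratio of the stronger to the weaker gene was lower in treated libraries. For L18 it was higher: AT5G27850 to RPL18 was 0.44, 0.60 and 0.55 untreated, 0.75, 0.88 and 0.73 under cycloheximide, and 0.57, 0.78 and 0.77 with both (difference 0.21, exact permutation p = 0.0238). The adjusted p was 0.068 for each of these pairs.

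**Figure D5:**
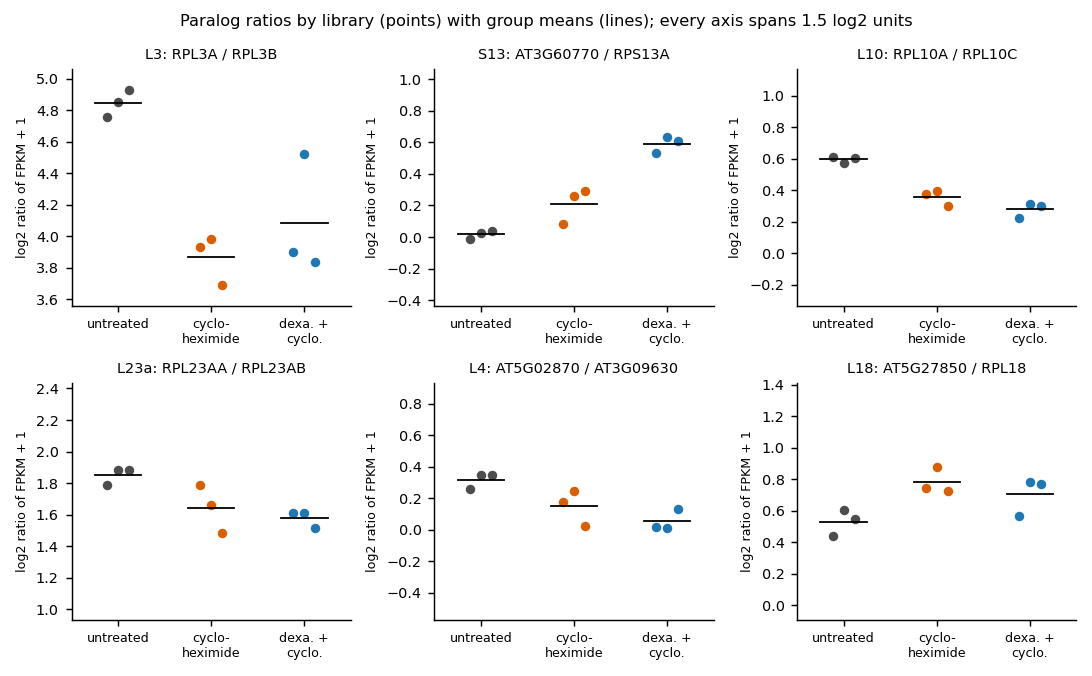
Log2 ratio of FPKM + 1 between paralogs (vertical axis, the same span of 1.5 log2 units in each panel) for the 6 pairs with the largest difference, by library and group; lines are group means. Treated minus untreated means were −0.87 for RPL3A to RPL3B and 0.39 for AT3G60770 to RPS13A, and no pair passed after adjustment.

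Other genes of the ribosome also fell with cycloheximide. Of 154 other cytosolic ribosomal protein genes measured at a locus of their own, 151 fell with cycloheximide and 0 rose, while 28.2% of all tested loci fell and 26.5% rose. The median log2 fold change of the 154 was −0.92. The smallest p were those of the S17 gene AT3G10610 (log2 −1.09 ± 0.11), the L13a gene AT4G13170 (−1.12 ± 0.12), the S21 gene AT3G53890 (−1.17 ± 0.13) and the L11 gene AT5G45775 (−1.11 ± 0.13), each with an adjusted p of 0.000164 or less. The 3 that did not pass, named after their values were seen, were the L34 gene AT3G28900, the S2 gene AT3G57490 and UBQ6, a gene for S27a, all with values below 0. With dexamethasone 1 of the 154 was called, where 3.69% of all loci were: the L27 gene AT2G32220, which rose from 12.3 ± 2.25 to 18.7 ± 1.51 FPKM (log2 0.57 ± 0.12, adjusted p = 0.0437), and it was also picked out after its values were seen. That call was lost in 8 of the 9 fits that left out a library.

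Of 25 ribosome biogenesis genes 10 fell with cycloheximide, which is 40% against 28.2% of all tested loci, and 0 rose, against 26.5%. Their median log2 fold change was −0.17, and that of all loci −0.05. Together with the RACK1 paralogs and TOR genes described next, 13 of 32 genes fell, and 8 did without untreated replicate 2 or without cycloheximide replicate 3. NUC1, the main nucleolin (log2 −0.96 ± 0.11), the box C/D proteins NOP58-1 (−0.81 ± 0.09) and NOP56 (−0.82 ± 0.11) and the pseudouridine synthase CBF5 (−0.57 ± 0.08) had the smallest p, while the assembly factors APUM23, LSG1-2 and WDR12, named after their values were seen, did not pass, with values of 0.01 to 0.10. With dexamethasone 0 of the 25 were called by limma, and 3 had an unadjusted p under 0.05, a threshold at which no share of all loci was taken. Among 7 tested genes of the RACK1 and TOR list, RACK1B (−0.69 ± 0.11), RACK1C (−0.84 ± 0.14) and elongation factor 2, LOS1 (−0.45 ± 0.13), fell, and TOR (0.00 ± 0.13) and RAPTOR1B (−0.21 ± 0.12) did not pass. RACK1A was the strongest RACK1 gene: untreated RACK1B had 92.0 to 105 FPKM and RACK1C 78.2 to 81.8. S6K2, a kinase of S6, rose from 25.6, 20.3 and 27.6 FPKM untreated to 398, 485 and 566 with cycloheximide (log2 4.24 ± 0.15, adjusted p = 4.85e-07), and had 666, 671 and 685 with both compounds. The neighbouring near copy S6K1 lacked the OK status and was not tested, so how reads were split between the S6K genes is uncertain.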

How the data were processed

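RNA-seq was made from 9 libraries, 3 in each of 3 groups taken from the labels. TopHat, Cufflinks and Cuffdiff and the TAIR10 build are named, per the submitters' processing notes; the sources used here give no versions or scaling. Deposited values were FPKM per locus with a status, computed by the authors. A further 18 per-sample columns of confidence bounds were not used. Strand handling is not settled: the design text speaks of a strand-specific protocol, but the kit in the labels keeps no strand. Absolute depth is unknown, and the FPKM that 1 read was worth at loci of 101 bp ranged from 761.5 to 2091, which also depends on fragment length.

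A gene was matched to the locus that listed its ID, the longest on its strand if several did, as for 3 genes. EMB2296 shared its locus with 1 other annotated coding gene. Loci with status OK in all libraries and a mean FPKM of at least 1 (19569) were tested together in limma 3.58.1 (R 4.3.3), using log2(FPKM + 1), an intensity trend, all 9 libraries in 1 fit and Benjamini-Hochberg adjustment over all of them; a call was an adjusted p under 0.05. The fold change on this scale understates that of low genes. Paralog ratios, promoters and figures used Python 3.11.15, pandas 2.3.3, numpy 2.4.6, Biopython 1.88 and matplotlib 3.10.9, with RefSeq annotation of TAIR10.1, and locus coordinates stayed those of the table. The scripts were tested on simulated data.

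The 44 genes and the comparison lists were chosen with earlier results of these data known, and the lists were written from general knowledge. Of 186 other ribosomal protein IDs 182 were kept, after 2 pseudogenes and 2 genes for mitochondrial S15a were left out once the annotation was at hand. All 44 genes could be named. Library values could be given for the strongest paralog of each protein, the 3 largest called changes, the 6 pairs of largest ratio difference and RACK1A. From each list up to 4 called genes with the smallest p were named.

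Replicate numbers are shared in the labels. Same-numbered libraries of the 2 cycloheximide-containing groups deviated together (r = 0.353, 0.131 and 0.213 over loci), which was read as pairing by number. Libraries of different number had r from −0.281 to 0.113. Deviations within a group sum to 0, so these correlations are not independent of each other. The main fit did not use the pairing. Against untreated the correlations were −0.115 to 0.108 and no pairing was assumed. Alternatives were a pseudocount of 0.1, no filter, loci of at least 300 bp only, centring on the library median, the replicate block, only the 6 libraries compared, and leaving out each library. A fit combining the block with the 6 libraries was chosen after seeing the data.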

Additional observations from a re-analysis of the deposited data

How the results depend on the processing

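The falls against untreated kept their direction and calls at all 41 loci in every alternative run, with the members' median log2 fold change at −0.96 to −0.73 (cycloheximide) and −1.09 to −0.96 (both compounds) over the fits that left out a library, and at −1.15 for both compounds when centred. RPL3B decided the count of higher members with cycloheximide, which went from 0 to 1 with the replicate block (adjusted p of RPL3B = 0.0393), with only the 6 libraries compared (0.00506) and with both together (0.0133), and was 0 to 1 over the left-out libraries; with both compounds it was also 0 to 1. For dexamethasone the members' median ranged from −0.265 to −0.027 and lower calls from 0 to 1 over left-out libraries, and the block with only the 6 libraries gave 1. Among other ribosomal protein genes, higher calls with dexamethasone were 0 with a pseudocount of 0.1, 0 without the filter, 0 with only the 6 libraries, 2 with the replicate block and 0 to 1 over left-out libraries, and lower calls 0 to 3. For the 32 biogenesis, RACK1 and TOR genes, lower calls were 8 to 13 with cycloheximide (8 without untreated replicate 2 or cycloheximide replicate 3) and 0 to 2 with dexamethasone; for both compounds, higher calls were 1 to 2 over left-out libraries, 1 when centred and 1 with the block on 6 libraries, and lower calls 20 when centred against 13. The cause of these shifts was not tested. Paralog calls were 0 in all alternatives run, including permutation within replicate numbers (replicate block), but leaving out a library also raises the smallest p the design can give, so this says nothing on stability. The block changed no other call of a member. The FPKM carry no read counts, so counting error could not be set for the weakest genes.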
